A study of Mus musculus with 8 samples.

Results

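Layer 6 corticothalamic neurons of the mouse cortex were examined as 4588 nuclei out of 77185 that passed the quality limits, which asked for 500 or more detected genes and for no more than 2% of UMIs from mitochondrial genes (unique molecular identifiers, the counted RNA molecules). A member nucleus had at least 1 UMI of Slc17a7 and at most 1 of Gad1 and Gad2 together, which makes it excitatory. It also had at least 3 UMIs of Foxp2, at least 3 of Hs3st4 and at least 2 of Syt6 and Tle4 together. Nuclei were left out with more than 1 UMI of the layer 6b genes Cplx3, Nxph4, Ccn2 and Moxd1 together, or with more than 2 UMIs of the glial and vascular genes Slc1a3, Mog, Inpp5d and Flt1 together. The levels of these 15 genes chose the members, so they are given below as a description only.

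Corticothalamic cells are glutamatergic projection neurons of the deepest cortical layer. Their axons run to the thalamus, with branches to the thalamic reticular nucleus and to the layers above, and they are known for setting the gain of sensory responses. During development the transcription factors Tbr1 and Sox5 help to separate them from the other deep-layer projection neurons, and Foxp2 and Tle4 mark them in the mature cortex. Chd8 encodes a chromatin remodeller of the chromodomain helicase family, and loss of a copy is associated with autism in people.

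The study compared 4 wild-type (WT) mice with 4 mice heterozygous for Chd8 (Chd8het), all of strain C57BL/6J and at postnatal day 25, with 2 males and 2 females of each genotype. Each animal gave 1 single-nucleus RNA library of frozen cortex from which the medial part had been taken off, prepared with the 10x Genomics 3' v3 kit, and the nuclei of all 8 animals were isolated side by side. The labels speak of 4 pairs matched for litter and sex without saying which libraries form a pair, and they do not describe the Chd8 allele. In each sex and genotype the library numbered 1 carried a single index and the library numbered 2 a dual index. The labels give the genotype for the whole animal, so no group limits the mutation to corticothalamic neurons.

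Over the 8 libraries the files held between 69503598 and 98132783 UMIs, and the member nuclei held between 4914560 and 7959904 of them. Between 27 and 63 barcodes were shared by any pair of libraries, and at most 1 of these belonged to a member nucleus in both. Male-specific genes and Xist matched the labelled sex in all 8 libraries. Levels below are UMIs per 1000000 of the summed member UMIs of a library after scaling between libraries (CPM), and the library, not the nucleus, is the replicate throughout. P-values measure the spread between the libraries of these animals. That spread includes index type unless the model has an index term or blocks by pair or library.

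The share of corticothalamic nuclei did not differ between genotypes by more than the spread between animals. They were 5.65 and 6.27% of the nuclei in WT males 1 and 2 and 5.34 and 6.47% in WT females 1 and 2. In Chd8het, males 1 and 2 had 6.56 and 4.84% and females 1 and 2 had 6.18 and 6.30%, and values for single libraries below keep this order. Chd8het male 2 was the lowest of all 8 and Chd8het male 1 the highest, so the groups overlapped. The WT mean was 5.93 ± 0.526% and the Chd8het mean 5.97 ± 0.769% (SD, n = 4 each), a difference of 0.0383 percentage points (exact permutation test, two-sided, p = 0.886; 4 against 4 libraries cannot go below 0.0286).

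The direction of the share difference depended on the index type. Among single-indexed libraries Chd8het was 0.874 percentage points above WT, and among dual-indexed libraries it was 0.798 points below. As a share of excitatory nuclei, members made up 10.9 ± 0.869% in WT and 11 ± 1.44% in Chd8het (SD, n = 4 each, exact permutation p = 0.943). Excitatory nuclei passing a near-projecting rule had at least 5 UMIs of Tshz2 and 2 of Vwc2l. Chd8het male 2, with the smallest share of members, had the highest count of these. It was 262, against 98 to 206 in the other 7 libraries. As a share of kept nuclei it did not stand out from WT male 2 (262 of 9955 against 206 of 7799). A Rorb rule needed at least 5 UMIs of Rorb, a transcription factor of layer 4 and 5 neurons, and at most 1 of Foxp2. Chd8het male 2 held the fewest of these, 397 against 814 to 1660. Without that library Chd8het was 0.414 points above WT, and the part of its make-up in the shares was not tested.

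The depth of the member nuclei differed between index types, and between genotypes by less than the spread between animals. The median member had 8309.5, 9791, 9136 and 10381 UMIs in the WT libraries and 8510, 9399, 8438.5 and 10755.5 in the Chd8het libraries. Group means were 9404 ± 890 and 9276 ± 1079 UMIs (SD, n = 4 each, exact permutation p = 0.886). All 4 dual-indexed libraries lay above all 4 single-indexed ones, at 10082 against 8599 UMIs on average, and the exact permutation p for that split was 0.0286, the smallest possible.

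**Figure D1:**
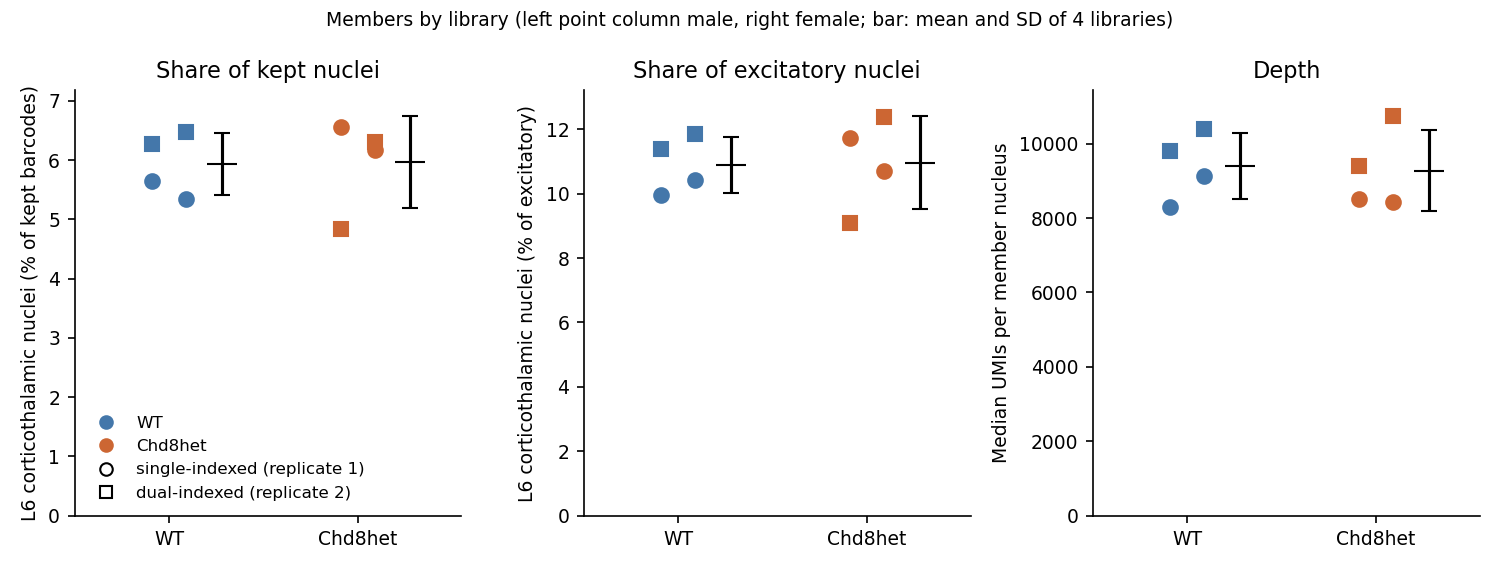
Share of kept nuclei (left, %), share of excitatory nuclei (middle, %) and median UMIs per member nucleus (right), 1 point per library, WT in blue and Chd8het in orange, circles single-indexed and squares dual-indexed, with the mean and SD of 4 libraries beside them. WT shares lie between 5.34 and 6.47% and Chd8het shares between 4.84 and 6.56%, and the squares lie above the circles in the depth panel.

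The label was checked against its 6 markers, of which Garnl3 and Zfpm2 had no part in the rule. Zfpm2, a cofactor of GATA transcription factors, lay between 1238 and 1426 CPM in the members of the 8 libraries and between 131 and 311 CPM in all other excitatory nuclei. Garnl3, which resembles activators of small GTPases, lay between 912 and 1280.3 CPM in members and between 227 and 280.1 CPM in the others. Members lay above the other excitatory nuclei in every library for both genes. In nuclei passing a layer 6b rule, which asks for at least 4 UMIs of the 4 layer 6b genes named above, Garnl3 lay lower, between 261 and 462 CPM, but Zfpm2 overlapped the members, between 814 and 1369.5 CPM.

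Among the rule's own genes, Foxp2 averaged 766 CPM in members and 31.6 CPM in other excitatory nuclei. Syt6, a synaptotagmin, averaged 129 against 5.69 CPM, and Tle4, a Groucho-type corepressor, 643 against 81.3 CPM. Hs3st4, which adds sulfate groups to heparan sulfate, averaged 2822 CPM in members against 366 CPM in other excitatory nuclei, but it was as abundant in nuclei of the layer 6b rule (3155 CPM), where Tle4 was at 898 CPM. The median member held 7 UMIs of Foxp2 (5th to 95th percentile 3 to 18), 25 of Hs3st4, 6 of Tle4 and 1 of Syt6.

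Nuclei just inside and just outside were compared at 4 limits of the rule, those of Foxp2, of Hs3st4, of Syt6 and Tle4, and of the layer 6b genes. There were 612 members with exactly 3 Foxp2 UMIs, and 654 nuclei that met every other condition but had 2. Zfpm2 stood at 944 CPM just inside and 802 CPM just outside, and Garnl3 at 989 and 881 CPM. Tshz2, a marker of near-projecting neurons, was at 445 CPM just inside and 773 CPM just outside. At the limit of Syt6 and Tle4 there were 326 nuclei just inside and 229 just outside, with Zfpm2 at 979 and 777 CPM. At the layer 6b limit there were 198 and 42, and Hs3st4 divided few nuclei, with 33 and 25.

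Other genes known in corticothalamic neurons were higher in the members than in the rest of the excitatory nuclei. Thsd7b reached 611 CPM against 107 CPM in other excitatory nuclei. Crym, a thyroid hormone binding protein, stood at 51.4 against 11.8 CPM, Tbr1 at 34.8 against 16.9 CPM, and Sox5 at 741 against 399 CPM. Thsd7b, Sox5 and Tbr1 were not particular to the members. Thsd7b averaged 662 CPM in nuclei of the layer 6b rule and Sox5 704 CPM in those of the near-projecting rule. Tbr1 ran from 19.4 to 39.2 CPM in the layer 6b rule and from 28.3 to 38.1 CPM in members. Ntsr1, the neurotensin receptor whose Cre line is widely used to reach these cells, was sparse at 6.77 CPM, against 16.6 CPM in the layer 6b rule. A UMI of Ntsr1 was seen in 6.21% of members, and in 3.17% after each nucleus was thinned to 5000 UMIs, against 1.32% and 0.686% of the nuclei passing the Rorb rule, which should lack the gene.

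Thinning left out 134 of 2239 WT and 189 of 2349 Chd8het members with fewer UMIs, and 412 of 4587 WT and 401 of 4385 Chd8het nuclei of the Rorb rule. Before thinning the median depth was 9275 UMIs in members and 9991 UMIs in the Rorb rule.

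Of 3005 genes with at least 50 CPM in members, 62 (2.06%) were at least 2-fold above other excitatory nuclei in all 8 libraries. The strongest outside the rule, ranked by their lowest library, included Sema5a, a semaphorin that guides axons, at 184 against 27.4 CPM. Arhgap25, a regulator of small GTPases, stood at 78.8 against 10.5 CPM and Col12a1, a fibril-associated collagen, at 74.2 against 9.53 CPM. Cdh18, a cadherin, was the most abundant of them at 3217 CPM, against 621 CPM in other excitatory nuclei. These levels describe the members and were not tested, because nuclei chosen on some genes differ in all genes that go with them.

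Several of these genes were shared with neighbouring deep-layer kinds. Nuclei passing the layer 6b rule, 154 in all, had 7446 CPM of Cdh18, 611 CPM of the transcription factor Nfia (442 CPM in members) and 568 CPM of the kainate receptor gene Grik3 (429 CPM in members). Glra2, a glycine receptor subunit, was lower in members than in layer 6b nuclei in all 8 libraries (68.6 against 112 CPM on average). By contrast the predicted gene Gm10635 averaged 78.2 CPM in members, 11.2 CPM in other excitatory nuclei and 0.336 CPM in layer 6b nuclei, and Rnf152, a ubiquitin ligase, was above layer 6b nuclei in 8 of 8 libraries.

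**Figure D2:**
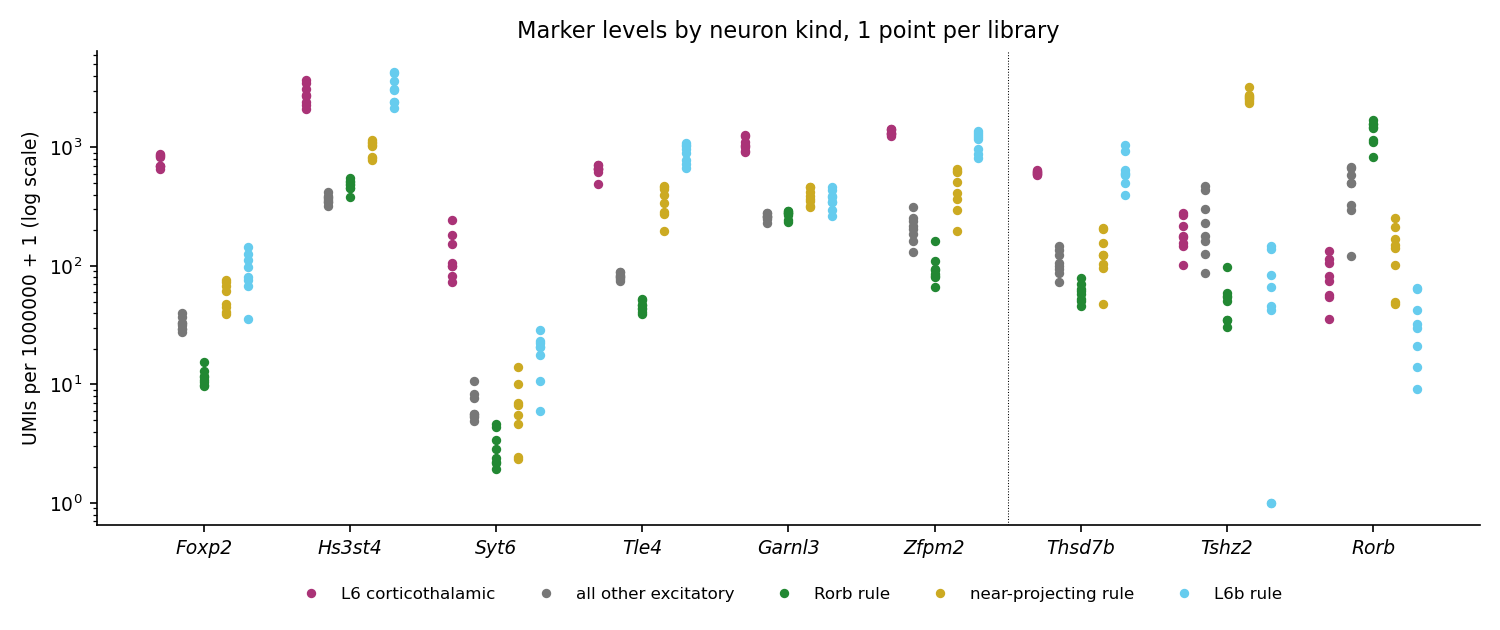
Levels of the 6 label markers (left of the dotted line) and of Thsd7b, Tshz2 and Rorb in members, all other excitatory nuclei and the nuclei passing the Rorb, near-projecting and layer 6b rules, as UMIs per 1000000 plus 1 on a log scale, 1 point per library. Foxp2, Syt6 and Garnl3 are highest in members, while Hs3st4, Tle4, Zfpm2 and Thsd7b are of similar height in the layer 6b rule, where only 154 nuclei carry the values.

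The members were not uniform. Clustering of the 4588 nuclei alone, with each gene centred within its library, gave 11 divisions of between 126 and 787 nuclei, and every division was present in all 8 libraries. They are named here by number and leading genes, and because the clusters were made from the same counts none of these genes was tested between them.

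The largest, division 1 with 787 nuclei, was led by Cdh13, a cadherin without a transmembrane domain, at 837 CPM against 168 CPM in the other members, with the heparan sulfate editing enzyme Sulf1. Division 3 (647 nuclei) was led by Arhgap31, the teneurin Tenm3 and the semaphorin Sema3e, at 405 against 133 CPM. Division 4 (601 nuclei) had Glra2 and the homeobox gene Meis2 about 2.1 to 2.3 times as high as in the others, the weakest contrast among the large divisions. Division 2 (715 nuclei) had Gm32647, Robo3 and Plk5 in front.

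Division 5 (395 nuclei) was led by Gm10635, at 504 against 40.0 CPM. It also had Nxph2, a neurexophilin, at 107 against 7.97 CPM, and Hcrtr2, a receptor for the wake-promoting orexin peptides, at 208 against 43.1 CPM. Division 6 (387 nuclei) was led by Ikzf2, Rmst and the relaxin receptor gene Rxfp1, at 113 against 27.9 CPM. Division 8 (289 nuclei), led by Taco1, Gse1 and Col5a1, ranged in share from 3.92% of members in WT male 1 to 10.8% in Chd8het male 2.

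A group of 3 divisions had leading genes of other cell kinds. Division 7 (365 nuclei) was led by Tafa1, Pdzrn3 and Cacna2d3, genes of upper and middle layer neurons, had a median of 19333 UMIs and was 63.3% predicted doublets. Division 11 (126 nuclei) was led by Erbb4, Sox6 and St18, genes of interneurons and oligodendrocyte lineage cells, with 73.0% predicted doublets. Division 10 (132 nuclei) had Tshz2 at 3723 against 81.9 CPM, Vwc2l at 1177 against 22.9 CPM and Grik1 at 1031 against 19.6 CPM, the pattern of near-projecting neurons, and 0.758% predicted doublets.

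Together the 3 held 623 members (13.6%), between 11.4 and 15.3% of each library, and 324 of the 330 predicted doublets among the members. Zfpm2, which had no part in the rule, stood at 701 and 919.9 CPM in divisions 7 and 11, above other excitatory nuclei. In division 10 it was at 365 CPM, within the 195 to 660 CPM of nuclei passing the near-projecting rule. Nuclei chosen on some genes differ in genes that go with them, so these levels of Zfpm2 are a description. Foxp2 stood at 355 and 624 CPM in divisions 7 and 11 and at 451 CPM in division 10. The rule asks for Foxp2 in every member, so its level is a description only. Without the 3 divisions the share of members was 5.09 ± 0.417% in WT and 5.20 ± 0.676% in Chd8het (SD, n = 4 each). Division 10, with the near-projecting pattern, held 2.55, 4.29, 3.88 and 3.12% of the members of the WT libraries and 2.54, 1.87, 2.55 and 2.26% of those of the Chd8het libraries, from 9 to 22 nuclei each. Its mean was 3.46 ± 0.778% in WT and 2.30 ± 0.320% in Chd8het (SD, n = 4 each). The groups did not overlap, but only just. WT male 1 had 13 of 510 members and Chd8het female 1 had 16 of 628, both 2.55%. Division 10 was singled out from 11 divisions made from the same counts. Nuclei passing the near-projecting rule, which are not members, were higher by count in Chd8het in each pair, with overlapping ranges. They numbered 98, 206, 125 and 156 in WT and 159, 262, 149 and 165 in Chd8het. These counts also follow the size of the library. As a share of kept nuclei, male pair 2 was about equal, with 206 of 7799 in WT and 262 of 9955 in Chd8het. The part of division 10 in the genotype differences was not tested.

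**Figure D3:**
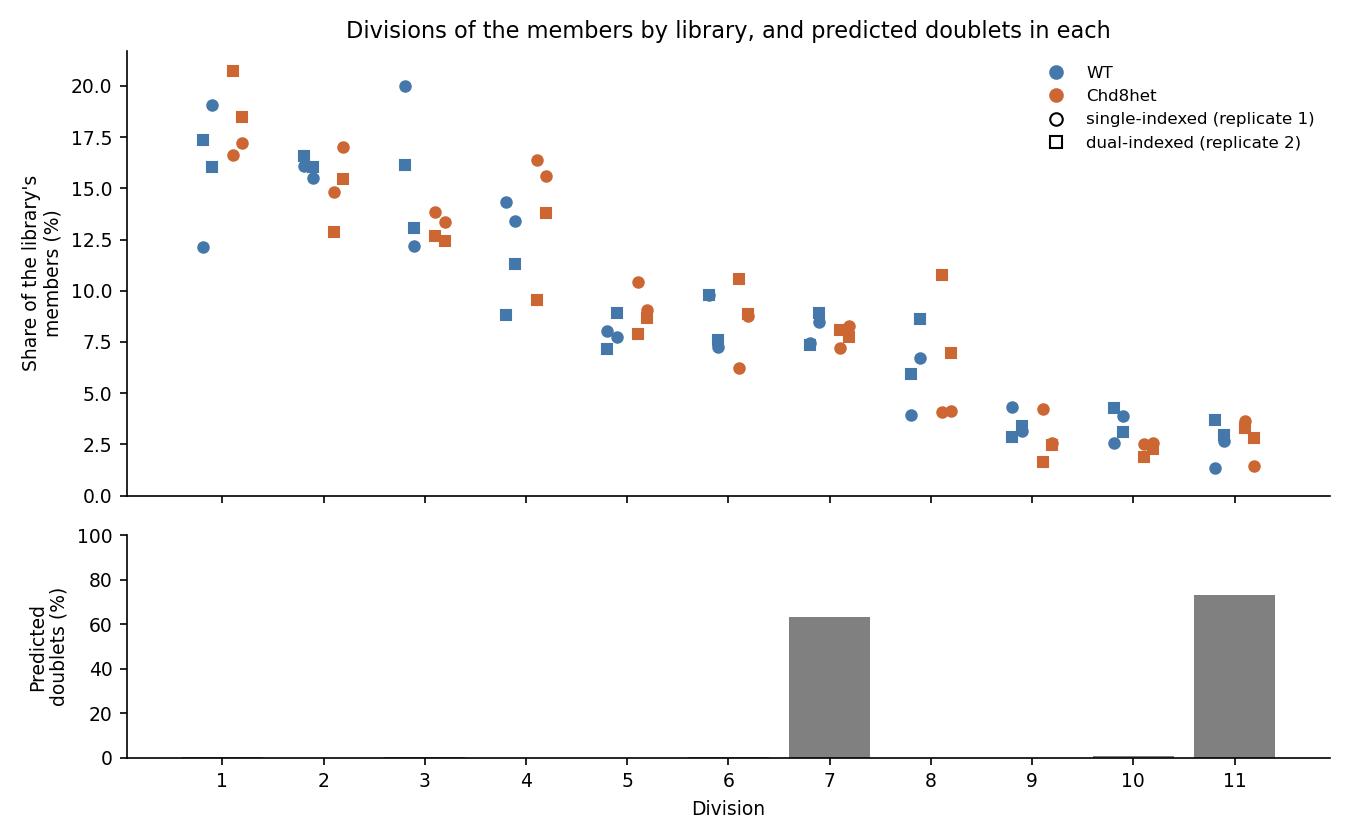
Share of each library's members in the 11 divisions (upper panel, %), 1 point per library, WT in blue and Chd8het in orange, circles single-indexed and squares dual-indexed, and the percentage of predicted doublets in each division (lower panel). Divisions 7 and 11 hold nearly all predicted doublets, at 63.3% and 73.0%.

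Genes used elsewhere to tell corticothalamic subtypes apart were each detected in part of the members. At 5000 UMIs per nucleus, Syt6 was seen in 41.7% of members (58.3% unthinned), from 29.0 to 59.6% over libraries, against 0.882% (1.88% unthinned) in the Rorb rule. Syt6 is not on the list of these subtype genes and helped choose the members, so that contrast is a description only. Cpa6, a carboxypeptidase, was seen in 27.9% (38.3% unthinned) against 9.43% (18.9% unthinned). Nxph2 was seen in 5.70% (8.87% unthinned) against 0.564% (1.43% unthinned), and Sla, an adaptor of tyrosine kinase signalling, in 8.30% (14.9% unthinned) against 0.613% (1.27% unthinned). A group of 4 went the other way. Brinp3 was at 52.8% of members (63.8% unthinned) and 90.6% (95% unthinned) of the Rorb rule, Wls at 9.19% (15.5% unthinned) and 39.2% (56.4% unthinned), and Pou3f2 at 3.001% (5.97% unthinned) and 9.74% (18.8% unthinned), while Vgll3 was rare in both, at 0.657% (1.42% unthinned) and 1.03% (2.36% unthinned).

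Chd8 was the first gene examined between genotypes. It stood at 84.0, 78.4, 78.9 and 82.5 CPM in the WT libraries and at 66.03, 80.4, 70.3 and 67.6 CPM in the Chd8het libraries, from 3690 UMIs in all. It was lower in 3 of the 4 Chd8het libraries than in every WT library, and Chd8het male 2 lay within the WT range. Means were 80.9 ± 2.72 and 71.1 ± 6.44 CPM (SD, n = 4 each). The log2 change was -0.19 (SE 0.091, unadjusted p = 0.0664, adjusted p = 1, edgeR quasi-likelihood test with Benjamini-Hochberg adjustment).

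When each Chd8het library was paired with the WT library that had its sex and number, the log2 change of Chd8 was again -0.19 (SE 0.083, unadjusted p = 0.0419, adjusted p = 0.877, edgeR). In other excitatory nuclei Chd8 was at 78.5 ± 3.0 CPM in WT and 79.8 ± 5.77 CPM in Chd8het (SD, n = 4 each). The difference between the 2 kinds of nuclei was -0.21 (unadjusted p = 0.00781, adjusted p = 0.997 over all genes, edgeR interaction of genotype and neuron kind), so it did not pass. Because the allele is not described, it is not known whether 3' counts can show the mutation, and the level does not check the labels.

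No gene was called between the members of Chd8het and WT animals in the model of sex and genotype. None of 14230 tested genes (0%) passed an adjusted p of 0.05 (edgeR), 268 (1.88%) had an unadjusted p under 0.05, and DESeq2 with the same model also called 0, with 151 at an unadjusted p under 0.05.

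When the pairs were blocked, 2 of 14637 genes (0.0137%) passed, Ephb1 and Maml3, both lower in Chd8het. An unadjusted p under 0.05 was reached by 819 (5.6%). Between the index types, which coincide with the replicate numbers, 2254 of 14637 genes (15.4%) were called, 1271 (8.68%) higher in dual-indexed libraries and 983 (6.72%) lower. Without a count filter edgeR called 27 of 25264 genes for genotype with no block (0.107%), 11 higher (0.0435%) and 16 lower (0.0633%). These took in Ephb1 and Maml3, which did not pass in that model with the filter. Dropping the filter also raised the calls for sex from 6 to 288 and for genotype by neuron kind from 0 to 59.

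Ephb1 encodes a receptor tyrosine kinase for ephrin-B ligands that guides axons and shapes synapses. The gene (ENSMUSG00000032537, protein coding) lies on the minus strand of chromosome 9, from 101922128 to 102354693 in GRCm38. It stood at 368, 646, 336 and 629 CPM in the WT libraries and at 240, 410, 228 and 375 CPM in the Chd8het libraries. Dual-indexed libraries were higher in both genotypes, so the groups overlapped over all 8, but within each index type both Chd8het libraries lay below both WT libraries. Ephb1 was picked by its call in the paired model, which favours this, and the share of all genes doing so was not counted.

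The mean level of Ephb1 was 495 ± 166 CPM in WT and 313 ± 92.6 CPM in Chd8het (SD, n = 4 each). Its log2 change within pairs was -0.65 (SE 0.061, adjusted p = 0.00506, edgeR), with a lower value in Chd8het in 4 of 4 pairs, which 7% of all tested genes also had. In the model of sex and genotype it was -0.66 (SE 0.268, unadjusted p = 0.0344, adjusted p = 1, edgeR). Within single-indexed libraries alone the log2 change was -0.58 and within dual-indexed ones -0.70.

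The share of nuclei with Ephb1 RNA moved in the same direction. At 5000 UMIs per nucleus it was seen in 77.5, 85.4, 75.3 and 88.8% of members of the WT libraries and in 61.8, 75.2, 61.7 and 78.7% of those of the Chd8het libraries. Each Chd8het library was below its WT partner, and the means were 81.8 ± 6.40 and 69.3 ± 8.89% (SD, n = 4 each). Over all members it was 75.4% thinned and 87.2% unthinned, and in the Rorb rule 42.2% and 61.0%.

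In other excitatory nuclei Ephb1 was lower than in members, at 112, 187, 119 and 168 CPM in WT and 104, 154, 104 and 147 CPM in Chd8het. Chd8het was again below WT in each pair, by a log2 change of -0.19 (SE 0.054, adjusted p = 0.610 with the pairs blocked, edgeR). The genotype difference was larger in members by -0.45 on the log2 scale (unadjusted p = 3.03e-05), which did not pass over all 19465 genes (adjusted p = 0.591, edgeR interaction). Only with WT female 1 left out did the interaction pass, at -0.52 (adjusted p = 0.0360, edgeR). With any other library left out no gene passed, and DESeq2 with all libraries called none.

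Ephb1 also varied among the divisions of the members. It was highest in division 8 (587 CPM), division 2 (559 CPM) and division 3 (519 CPM), and lower in divisions 1 and 7 (269 CPM in both) and in the near-projecting pattern of division 10 (62.3 CPM). Without divisions 7, 10 and 11 the mean was 553 CPM in WT against 339 CPM in Chd8het, a log2 ratio of -0.71.

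Maml3 encodes a Mastermind-like coactivator that joins Notch and RBPJ on DNA. It (ENSMUSG00000061143, protein coding) lies on the minus strand of chromosome 3, from 51685907 to 52105076 in GRCm38. Levels were 262, 535, 264 and 566 CPM in WT and 168, 329, 179 and 344 CPM in Chd8het. As for Ephb1, the groups overlapped over all 8 libraries and separated within each index type, which choosing by the paired model again favours.

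The means of Maml3 were 407 ± 166 and 255 ± 94.3 CPM (SD, n = 4 each). Within pairs the log2 change was -0.66 (SE 0.063, adjusted p = 0.00506, edgeR), lower in 4 of 4 pairs. In the model of sex and genotype it was -0.68 (SE 0.332, unadjusted p = 0.0702, adjusted p = 1, edgeR). At 5000 UMIs per nucleus a UMI of Maml3 was seen in 68.8 ± 9.70% of WT members and 58.3 ± 11.1% of Chd8het members (SD, n = 4 each), against 47.4% of the nuclei in the Rorb rule. Unthinned, the shares over both genotypes were 75.2% of members and 60.9% of the Rorb rule.

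In other excitatory nuclei Maml3 had a difference of like size, where the log2 change was -0.67 (SE 0.094, adjusted p = 0.290 with the pairs blocked, edgeR). The interaction of genotype and neuron kind was 0.03 (unadjusted p = 0.816, edgeR). Among the other 11 genes of the Notch, RBPJ and Mastermind list that were tested in both models, none had an unadjusted p under 0.05 in either model. Their relatives Maml1 and Maml2 had log2 changes of 0.08 and -0.21, and Rbpj 0.06.

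Both calls depended on the male pairs. When 1 library was left out of the paired model, which removes its pair from the genotype comparison, the adjusted p of Ephb1 and of Maml3 ranged from 0.00412 to 0.129 (edgeR), and both were lost without any 1 of the 4 male libraries. Their log2 changes stayed between -0.67 and -0.61 for Ephb1 and between -0.69 and -0.64 for Maml3. Both genes are long and overlap other annotated genes, Ephb1 3 on its own strand and 6 on the other, Maml3 11 and 4, and whether the counting used strand or introns is not given in the sources used here.

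DESeq2 with the pairs blocked called 5 genes (0.0342%), all lower in Chd8het, adding Pde10a, Gm13052 and 5330434G04Rik to the same 2. Pde10a, a phosphodiesterase that breaks down cyclic nucleotides and is best known from striatal projection neurons, stood at 836, 1882, 705 and 1886 CPM in WT and 569, 1695, 501 and 1025 CPM in Chd8het. Dual-indexed libraries had far more of it than single-indexed ones (log2 difference 1.32), and the groups overlapped. Its log2 change was -0.52 in members and also -0.52 in other excitatory nuclei (adjusted p = 0.289 and 0.290 with the pairs blocked, edgeR). Pde10a is 1 of 10 striatal markers examined, which summed to 1157 to 2406 CPM in WT members and 897 to 2087 CPM in Chd8het members. Their median log2 change was -0.19, and in the paired model Pde10a and Meis2 (408 ± 12.6 against 355 ± 40.2 CPM, SD, n = 4 each) had an unadjusted p under 0.05 (edgeR). The defining striatal genes were near 0, with Drd1 at 3.85 and 3.68 CPM, Drd2 at 1.01 and 0.189 CPM and Adora2a at 0.912 and 0.440 CPM in WT and Chd8het.

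5330434G04Rik (ENSMUSG00000087620), a long intergenic RNA gene on the minus strand of chromosome X from 105348282 to 105391776 in GRCm38 that also holds Mir325, had the smallest unadjusted p for genotype in the model of sex and genotype among genes of at least 20 CPM. It was at 222, 206, 220 and 192 CPM in WT and 170, 125, 155 and 149 CPM in Chd8het. Every WT library was above every Chd8het library, as for 0.836% of all tested genes, and index type moved it little. Its log2 change was -0.49 (SE 0.108, unadjusted p = 0.00126, adjusted p = 1 in the model of sex and genotype, and SE 0.079, adjusted p = 0.260 with the pairs blocked, edgeR), while DESeq2 with the block gave an adjusted p of 0.0309. In other excitatory nuclei it was -0.66 (SE 0.057, adjusted p = 0.0655 with the pairs blocked, edgeR).

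**Figure D4:**
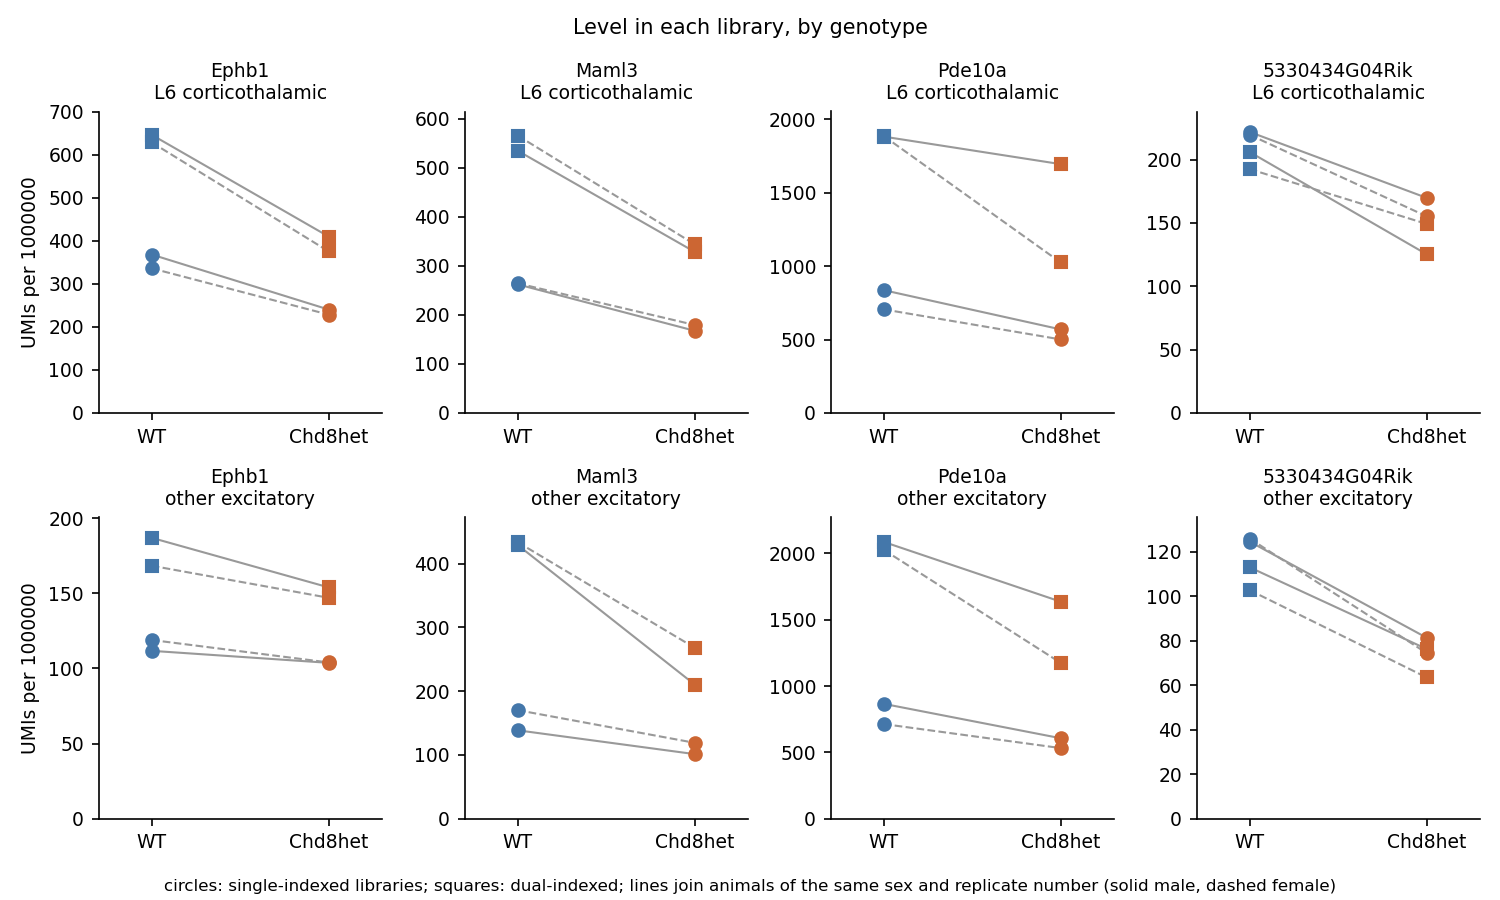
Levels of Ephb1, Maml3, Pde10a and 5330434G04Rik (UMIs per 1000000) in members (upper row) and in other excitatory nuclei (lower row), WT at the left and Chd8het at the right of each panel, with lines joining the 2 libraries of a pair, circles single-indexed and squares dual-indexed. Every line runs downward, and for the first 3 genes the squares lie far above the circles.

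The genes of smallest unadjusted p in the model of sex and genotype, among those with at least 20 CPM, did not pass the adjustment (adjusted p = 1 for each, edgeR). Of the 12, 10 had groups that did not overlap, against 1.71% of all tested genes, which choosing by p-value favours. Of these 12, 6 were lower in Chd8het and 6 higher.

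Rxfp1, a receptor for the peptide hormone relaxin, was at 21.4, 32.4, 28.7 and 29.7 CPM in WT and 34.5, 46.0, 37.0 and 47.9 CPM in Chd8het. All Chd8het libraries were above all WT libraries, as for 0.878% of all tested genes. Its log2 difference was 0.56 (SE 0.159, unadjusted p = 0.00599, edgeR), against 0.09 in other excitatory nuclei with the pairs blocked, and the interaction had an unadjusted p of 6.40e-05 (adjusted p = 0.623, edgeR). Within the members the gene was among the leaders of division 6.

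Epha6, a receptor for ephrin-A ligands, was at 98.3, 121, 139 and 160 CPM in WT and 200, 262, 165 and 179 CPM in Chd8het, again without overlap. The log2 difference was 0.63 (SE 0.184, unadjusted p = 0.00684, edgeR). In the paired model it passed only when a library of female pair 2 was left out (adjusted p = 0.0346 to 1 over all libraries left out in turn, edgeR). The gene was higher in other excitatory nuclei (683 ± 63.0 CPM in WT, SD, n = 4), and without divisions 7, 10 and 11 it fell to 66.9 CPM in WT and 113 CPM in Chd8het members.

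The other genes of this set had log2 differences from -0.48 to 0.53. Higher in Chd8het were Atp8b1, a flippase of membrane phospholipids (24.0 ± 1.66 against 32.7 ± 2.20 CPM), Enox2 (21.8 ± 3.29 against 31.1 ± 4.82 CPM), Jdp2, a repressor of AP-1 activity (36.3 ± 4.44 against 44.9 ± 2.15 CPM) and the long intergenic RNA Gm48749 (52.6 ± 10.8 against 76.6 ± 15.4 CPM). Lower were Pde7b, a cyclic AMP phosphodiesterase (118 ± 18.2 against 84.5 ± 6.99 CPM), Gm15155 (193 ± 13.4 against 154 ± 9.97 CPM), the splicing factor gene Rbmx (26.2 ± 2.34 against 20.01 ± 1.41 CPM), the centrosomal gene Cep85l (86.7 ± 9.38 against 68.4 ± 13.0 CPM) and Rgs6, a brake on G protein signalling (1206 ± 107 against 958 ± 158 CPM). Each value is the WT mean against the Chd8het mean (SD, n = 4 each).

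**Figure D5:**
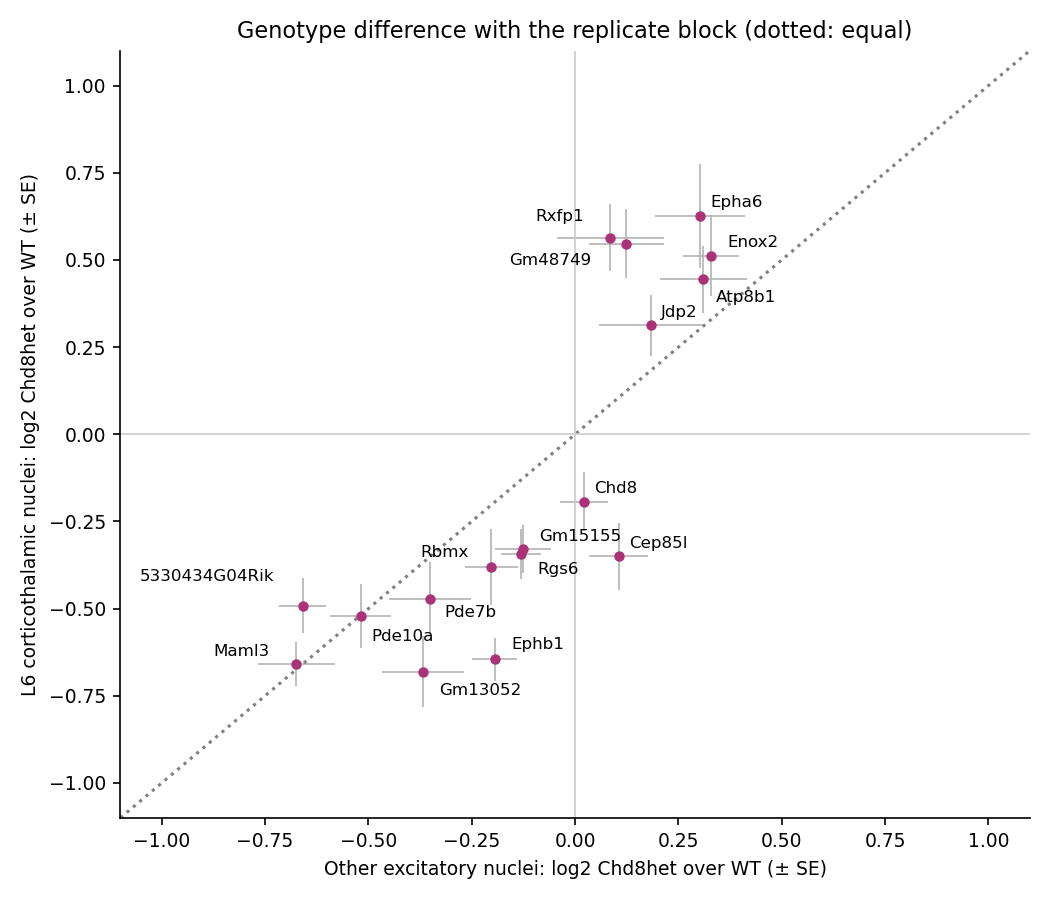
Log2 difference of Chd8het over WT with the pairs blocked, in other excitatory nuclei (horizontal) and in corticothalamic nuclei (vertical), with standard errors, for Chd8, the genes called by any paired model and the 12 genes of smallest p. Maml3 and Pde10a lie on the dotted line of equal change, while Ephb1 has -0.65 in members and -0.19 in other excitatory nuclei.

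The interaction of genotype and neuron kind called no gene among 19465 (0%), with 900 at an unadjusted p under 0.05 (edgeR). Against the nuclei of the Rorb rule alone it called 1 of 15976 (0.00626%). That gene was Svil, which encodes the actin-binding protein supervillin and is named because of this call, with a log2 interaction of -1.64 (SE 0.228, adjusted p = 0.0466, edgeR). Svil was at 14.9, 47.3, 12.9 and 24.1 CPM in WT members and 10.1, 26.3, 7.05 and 19.95 CPM in Chd8het members, and at 1.54, 3.81, 1.60 and 3.45 CPM and 3.62, 10.4, 3.16 and 4.99 CPM in the Rorb nuclei. Chd8het was lower in members and higher in Rorb nuclei in each of the 4 pairs, which choosing by this call favours. In members 6.6% of tested genes were higher and 7% lower in all 4 pairs, and the shares in Rorb nuclei were not counted. Within the members Svil was among the leading genes of division 1, at 60.0 against 12.1 CPM in the other members.

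Gene lists of identity and function were read by counts of unadjusted p under 0.05 and by their median log2 change, beside the same over all tested genes, where 1.12% were higher and 0.766% lower and the median was 0.003. In the paired model these were 2.95% and 2.64%. In the accounts of lists, higher and lower refer to genes with an unadjusted p under 0.05. None of the listed genes was called in the model of sex and genotype.

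Of the 6 label markers 4 had chosen the members, so their levels between genotypes are given without a test. The other 2, Garnl3 and Zfpm2, had log2 changes of -0.13 and -0.03, with an unadjusted p of 0.268 and 0.729 (0.194 and 0.623 with the pairs blocked, edgeR). Hs3st4, a rule gene, was at 2401, 3702, 2707 and 3498 CPM in WT and 2087, 2788, 2288 and 3103 CPM in Chd8het, lower in each pair. Tle4, between 652 and 704 CPM in WT and between 493 and 664 CPM in Chd8het, was also lower in each pair, Foxp2 (690 to 871 and 659 to 838 CPM) in 3 of 4 and Syt6 (71.9 to 181 and 81.5 to 245 CPM) in 2 of 4. Of all tested genes 7% were lower in 4 of 4 pairs. The rule's limits bear on the levels of these 4 genes, so the pair counts are a description only. Of 23 other corticothalamic genes 1 was higher, Mctp2, with 7.84 ± 2.15 against 11.4 ± 2.04 CPM (SD, n = 4 each, log2 difference 0.55), and the median was -0.02. In the paired model 2 were higher and 1 lower.

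Of 13 subtype genes 1 was higher, Vgll3, at 0.968 ± 0.565 and 2.23 ± 0.638 CPM, from 81 UMIs, and in the paired model 2 were higher, Vgll3 and Kit, and none lower. Among 31 layer transcription factors 1 was lower, Auts2, an autism-associated gene, with 943 ± 46.6 against 845 ± 49.2 CPM (log2 difference -0.16) and no overlap, and in the paired model 2 were lower, Auts2 and Myt1l, and none higher. Foxp1 and Rora also had groups without overlap, at 798 ± 14.1 against 749 ± 9.02 CPM and 674 ± 28.7 against 622 ± 4.13 CPM (SD, n = 4 each), so 3 of 31 had every WT library above every Chd8het library, against 0.836% of all tested genes. The summed level of the list was 11209 to 11769.6 CPM in WT and 10707 to 11028 CPM in Chd8het, without overlap. It was the only list whose sum did not overlap, and the sum was not tested.

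Receptor and channel lists had medians between -0.05 and 0.02. Of 32 glutamate receptor genes 1 was lower in the model of sex and genotype, the kainate receptor gene Grik1, with 54.8 ± 12.1 against 43.7 ± 11.2 CPM (SD, n = 4 each). Division 10, whose mean share of members was smaller in Chd8het, had the 1031 CPM of Grik1 given above, and without divisions 7, 10 and 11 it was at 8.88 and 11.7 CPM, in the opposite direction. Within pairs 6 of 32 were lower and 1 higher. The lower ones included the NMDA receptor subunits Grin2a (2314 ± 393 against 2012 ± 168 CPM) and Grin2b (1856 ± 308 against 1620.5 ± 189 CPM) and the AMPA receptor subunit Gria1 (858 ± 213 against 743 ± 137 CPM), each with a log2 difference of -0.19 in that model.

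Potassium and HCN channel genes had 0 of 27 in either direction, and in the paired model 2 were higher and 5 lower. Pex5l, which encodes an accessory protein of ion channels, was at 1200.3 ± 125 CPM in WT against 1004 ± 160 CPM in Chd8het. Kcnq5, of the M current, was at 774 ± 157 against 959 ± 84.2 CPM (SD, n = 4 each). GABA-A receptor genes (14), sodium and calcium channel genes (21) and acetylcholine and monoamine receptor genes (20) had none in either direction in the model of sex and genotype. Of these genes in the paired model Gabrb1, Htr2c and Adra1a were higher and Gabrd and Cacna1e lower.

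Axon guidance and adhesion genes were the list with the most such genes, 4 of 54 higher and 4 lower, and a median of 0.00. Besides Epha6, the higher ones were the repellent Slit2 (61.7 ± 21.9 against 88.2 ± 10.8 CPM), the netrin receptor Unc5c (131 ± 24.1 against 153 ± 16.4 CPM) and the cadherin Cdh20. Besides Ephb1, the lower ones were the ephrin Efna5 (428 ± 31.9 against 364 ± 28.6 CPM), the semaphorin Sema3a (125 ± 22.4 against 90.0 ± 14.8 CPM) and the adhesion gene Lrrtm3 (975 ± 152 against 803 ± 78.3 CPM; SD, n = 4 each). In the paired model 8 were higher and 6 lower, and of these Ephb1 alone was called.

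Of 72 autism-associated genes, 0 were higher and 1 lower, with a median of -0.02, and in the paired model 2 were higher and 6 lower. Of 10 CHD remodeller genes none was higher or lower in the model of sex and genotype, whereas Chd8 alone was lower in the paired model. The 16 immediate early genes also had none, and in the paired model Fosl2 was higher and Egr1 and Npas4 lower. Their summed level varied widely between animals, from 206 to 915 CPM in WT and from 242 to 1294 CPM in Chd8het, and was highest in Chd8het male 2.

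Ribosomal protein genes had a median of 0.22, with 76 of 79 above 0, but no gene with an unadjusted p under 0.05 in the model of sex and genotype and 10 of 79 with the pairs blocked, all higher. The summed level was 1717, 808, 1140 and 1071 CPM in WT and 2041, 1109, 1433 and 944 CPM in Chd8het, and single-indexed libraries averaged 1583 against 983 CPM in dual-indexed ones. Oxidative phosphorylation genes had a median of 0.11, with 53 of 75 above 0, 1 higher in the model of sex and genotype and 8 higher with the pairs blocked, and none lower in either. The mitochondrial share of UMIs in the median member was 0.0931 ± 0.0493% in WT and 0.116 ± 0.0455% in Chd8het (SD, n = 4 each, exact permutation p = 0.486), and its part in these medians was not tested.

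Marker RNA of other cell kinds was present in the members, with ranges that overlapped between genotypes. The summed astrocyte markers (10 of 10 detected) ran from 872 to 1025 CPM in WT and 949 to 1088 CPM in Chd8het, oligodendrocyte markers (10) from 146 to 244 and 151 to 303 CPM, and interneuron markers (12) from 164 to 246 and 192 to 246 CPM. The astrocyte gene Slc1a2 alone was at 597 and 638 CPM in divisions 7 and 11, rich in predicted doublets. It was higher in all other divisions, between 737 and 1048 CPM. Whether the astrocyte sum stands for RNA of astrocytes was not tested. Vascular markers stayed between 6.23 and 14.1 CPM in all libraries. Of these lists the IT neuron markers (15) were closest to a split, with 654 to 726 CPM in WT and 721 to 805 CPM in Chd8het. Near-projecting markers (9) ran from 612 to 949 CPM in WT and 636 to 855 CPM in Chd8het. The median log2 change was 0.35 for astrocyte markers (8 of 10 above 0, 1 higher and 1 lower, and in the paired model 3 higher and 1 lower) and 0.29 for interneuron markers (8 of 10 above 0, none higher or lower, and in the paired model 2 higher and 1 lower). For layer 5 extratelencephalic markers it was 0.23 (7 of 8 above 0, none higher or lower, and in the paired model 3 higher), and for IT neuron markers 0.05 (9 of 14 above 0, none higher or lower, and in the paired model 3 higher). It was 0.13 for oligodendrocyte markers (7 of 10 above 0, 1 higher in either model and none lower) and -0.09 for near-projecting markers (3 of 9 above 0, 1 lower, and in the paired model 1 higher and 2 lower). Their part in the genotype differences was not tested.

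Between the sexes 6 of 14230 genes (0.0422%) were called (edgeR). Xist and Tsix were higher in females (0.0141%) and the Y-linked genes Uty, Kdm5d, Eif2s3y and Ddx3y in males (0.0281%). None of 13772 genes outside the sex chromosomes was called, with 749 at an unadjusted p under 0.05 (edgeR), while DESeq2 called 12 in all. No gene of 14637 (0%) had a genotype difference that differed between sexes, with 126 at an unadjusted p under 0.05 (edgeR interaction).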

How the data were processed

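Nuclear RNA of 8 cortices was measured with the 10x Genomics 3' v3 kit, per the labels' protocols. The authors deposited whole-number UMI counts per gene and barcode for 32285 genes. The submitters' processing notes list STAR 2.7.9a, STARsolo, Cell Ranger and mm10 without their roles. Strand setting, intron counting and annotation are not given in the sources used here, and the deposited barcodes had already been limited, to 97772. Coordinates come from GENCODE M21 on GRCm38, which matched 32235 gene identifiers.

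Counts of the member nuclei were summed per library and tested with edgeR 4.0.16 in R 4.3.3 (quasi-likelihood F test, minimum count 10, trimmed mean of M values, two-sided, Benjamini-Hochberg over all genes tested, called at adjusted p under 0.05) in a model of sex and genotype. Log2 changes are Chd8het minus WT, and standard errors derive from the F statistic. The interaction with neuron kind used a block for each library. Alternatives were a term for each pair in place of sex, an index term, no sex term, no count filter, DESeq2 1.42.0 with and without pairs, looser and stricter UMI limits, a 5% mitochondrial limit, Scrublet doublets left out, thinning of libraries to the same mean UMIs per nucleus, which does not equalise the depth of members, and omission of each library in turn. Predicted doublets stayed in the members otherwise, and were called at an expected rate of 0.8% per 1000 nuclei. Divisions came from Leiden clustering (scanpy 1.11.5, 2000 genes, 20 components, 15 neighbours, resolution 0.5). The scripts were tested on simulated data.

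WT and Chd8het libraries that shared a sex and a number were taken as pairs. Their deviations from the genotype means correlated in every pair (r 0.478 to 0.768 over 5981 genes), and those of libraries of the same index type but other sex did not (r -0.157 to 0.0639). Deviations from the means of each genotype and sex correlated for both, at r 0.360 to 0.687 in pairs and 0.522 to 0.609 across sexes, so pairs and sex combined with index type cannot be told apart. A check for duplicated libraries found none (chi-square per degree of freedom between replicates 9.65 to 18.7).

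Named genes were the rule genes and label markers, Chd8, genes called by any genotype model, the 12 of smallest p with at least 20 CPM, the 2 of smallest p in each list, the 15 with the largest lowest-library ratio to other excitatory nuclei, sex-linked genes, subtype genes and the leaders of each division. The members and the gene lists were chosen with earlier results of these data known. Genes of lists named beyond that rule were chosen after their values were seen, and some listed genes are not reported here. The lists of layer 6b and layer 5 extratelencephalic neurons, oligodendrocyte precursors, microglia, striatal and thalamic neurons summed to 99.1 to 197, 148 to 224, 486 to 879, 126 to 168, 897 to 2406 and 66.8 to 148 CPM in members.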

Additional observations from a re-analysis of the deposited data

Results flagged for a closer look

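Of 82 groups of 4 libraries examined, over 39 named genes outside the membership rule and the share and depth of members, 4 had a library far from the other 3 by Dixon's criterion, and chance gives about 1 in 20 groups. Chd8het male 2 held 11.5 CPM of Fosl2, an AP-1 transcription factor, against 2.23 to 2.49 CPM. The rest were in WT libraries. WT male 1 was low in Cep85l, with 72.8 CPM against 90.0 to 92.4 CPM. WT female 1 was high in the GABA-A receptor gene Gabrb1, with 1102 CPM against 913 to 944 CPM, and low in the calcium channel subunit gene Cacnb4, with 1068 CPM against 1362 to 1413 CPM.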

How the results depend on the processing

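The difference in share between genotypes had no stable direction. It was 0.0383 percentage points, and it turned to -0.0782 with stricter UMI limits, -0.160 with a 5% mitochondrial limit and -0.0767 after thinning libraries to the same mean UMIs per nucleus, and ran from -0.159 to 0.414 when 1 library was left out. The difference in median UMIs ran from -622 to 197 in the same way. The replicate block called 2 genes for genotype, Ephb1 and Maml3, and also 2 on each of 5 other member sets, chosen after seeing the data, and with an index term. DESeq2 with the block called 5. With no block, edgeR without a count filter called 27, which took in Ephb1 and Maml3, against 0 with the filter. With the block and 1 library left out the count ran from 0 to 25. Single-indexed libraries alone gave 17 calls and dual-indexed ones 0, also chosen after seeing the data. The cause was not tested. Leaving out a library without the block gave 0 each time.

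Sex calls were 8 with the replicate number (which is the index type) added as a replicate block beside sex, adding Dscaml1 and Jpx, 12 with DESeq2 (adding 4 autosomal genes, Acadm, Cdh9, Gm49127 and Man1a, and the X-linked Jpx and Kdm6a) and 288 without a count filter, and genotype by sex then gave 3 (Bnc2, Gm10837 and Gm11716, at low counts). Index type calls were 1365 with DESeq2. Genotype by neuron kind gave 1 against the Rorb rule, 59 without a count filter, and 0 to 1 with a library left out.

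Over 40 named genes outside the membership rule and their alternatives, 1184 values kept direction and side of the threshold, 47 passed it in addition (for Ephb1, Maml3, Gm13052, Pde10a, 5330434G04Rik, Gm48749, Epha6, Rgs6 and Slit2) and 6 changed sign. Of these Grik1 was at 0.40 without divisions 7, 10 and 11. The others were Garnl3, at 0.087 with single-indexed libraries alone, and both label markers when 1 library was left out, with or without the block, which gave -0.21 to 0.0012 for Garnl3 and -0.077 to 0.012 for Zfpm2. With all libraries in edgeR the replicate block changed no genotype call of the named genes beyond Ephb1 and Maml3. With 4 libraries a group, low genes such as Vgll3 rest on few UMIs.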
